A study of Mus musculus with 6 samples.

Results

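The subunit genes of oxidative phosphorylation were examined in the striatum of Shank3 transgenic (TG) and wild-type (WT) mice, by complex and by the genome that encodes them. They were chosen by symbol among the protein-coding genes of GENCODE M21: the mt-Nd, mt-Co and mt-Atp genes, Nduf genes of the a, b, c, s and v series, Sdha to Sdhd, the Uqcr genes, Cyc1, Cox4 to Cox8 and Atp5 genes, averaging 10 or more normalized reads over the 6 libraries. Of 97 genes that matched, 94 reached this level. Cytochrome b, written mt-Cytb in GENCODE and mt-Cyb in the list of symbols, was added, which gave 95 subunit genes among 17605 genes tested and 46078 in the table. Of these, 13 lie on the mitochondrial genome and 82 on nuclear chromosomes. By symbol, complex I holds 7 mitochondrial and 37 nuclear genes, complex II 4 nuclear genes, complex III 1 and 9, complex IV 3 and 15, and complex V 2 and 17. The study sequenced striatal RNA from 3 male Shank3 TG and 3 male WT mice, all C57BL/6J and aged 12 weeks, with 1 library per mouse. The TG mice carry an EGFP-Shank3 transgene in addition to the endogenous gene, and the whole striatum was dissected, so neurons, glia and vessels all contribute RNA. In such tissue, fewer cells of a type and less RNA per cell cannot be told apart.

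Oxidative phosphorylation turns the electrons of NADH and succinate into ATP across the inner mitochondrial membrane. Complex I and complex II pass electrons to ubiquinone, complex III passes them on to cytochrome c, complex IV gives them to oxygen, and complex V uses the proton gradient to make ATP. The mitochondrial genome encodes core subunits of complexes I, III, IV and V, transcribed as long precursors from both strands, and all subunits of complex II are nuclear. Neurons, including the spiny projection neurons of the striatum, rely on this pathway for firing and synaptic transmission.

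The libraries held between 27689589 and 36647626 counted reads, and the deposited values are read counts divided by a size factor per library. Shank3 itself stood at 29891, 28308 and 26044 normalized reads in TG mice 1, 2 and 3 and at 13807, 12918 and 13865 in WT mice (log2 fold change 1.05, SE 0.06, limma adjusted P = 7.04e-05). It was the single gene called at an adjusted P value under 0.05 by limma and by edgeR, and DESeq2 called 7 genes. Spiny neuron genes were present in all libraries, with Drd1 between 4237 and 6615 and Ppp1r1b between 21063 and 28763 normalized reads. Their log2 fold changes were -0.14 (SE 0.13) and -0.15 (SE 0.09), and the summed counts of 12 spiny neuron genes lay between 136509 and 189324, lowest in TG mouse 1 and highest in TG mouse 2. The summed counts of 16 choroid plexus genes reached 30278 in TG mouse 1 and lay between 8877 and 9998 in the other 5 mice. The contrast was wider for Ttr, a gene of this list. It stood at 13701, 1122 and 204 normalized reads in TG mice 1, 2 and 3 and at 322, 120 and 432 in WT mice. Summed counts of 6 cortical excitatory neuron genes were 37681, 26352 and 37211 in TG mice 1, 2 and 3. In WT mice 1, 2 and 3 they were 35178, 33718 and 30768. The part of these lists in the values below was not tested. Without TG mouse 1 the median log2 fold change of the mitochondrial subunit genes was -0.18 (-0.15 with it) and that of the nuclear ones -0.004 (-0.01 with it).

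Several mitochondrial genes have a near-identical copy in the nuclear genome, which bears on what a count of them holds. On chromosome 1, minus strand, GENCODE lists a row of 7 unprocessed pseudogenes whose transcripts align to mt-Co1, mt-Co2, mt-Atp6, mt-Co3, mt-Nd3, mt-Nd4l and mt-Nd4. The copies of mt-Co2 (Gm28661, 681 aligned bases), mt-Atp6 (Gm10925, 678), mt-Co3 (Gm28437, 783) and mt-Nd4l (Gm10222, 294) are identical to the mitochondrial gene over at least 98.99% of its length. That of mt-Nd3 (Gm28438, 345 bases) differs at 1 base. The copy of mt-Nd4 (Gm28439) covers its first 876 of 1378 bases without a difference, and that of mt-Co1 (Gm29216) covers bases 1063 to 1545 with 1 difference. Printed here, in GRCm38 and 5′ to 3′, are the first 60 bases of mt-Nd3 (chrM:9459-9518, plus strand) and of its copy (chr1:24613060-24613119, minus strand), with the differing base in capitals. It is T3C, counted from the first base of the mitochondrial gene, with the base of that gene first.
mt-Nd3: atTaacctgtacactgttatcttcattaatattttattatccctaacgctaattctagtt
Gm28438: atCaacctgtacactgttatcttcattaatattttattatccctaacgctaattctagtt
The first 60 bases of mt-Nd4l (chrM:9877-9936) and of Gm10222 (chr1:24612641-24612700) hold no difference.
mt-Nd4l: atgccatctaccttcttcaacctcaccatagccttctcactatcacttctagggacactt
Gm10222: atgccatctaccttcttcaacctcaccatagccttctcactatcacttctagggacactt
By contrast, Gm13339 on chromosome 2 matches mt-Nd2 at 96.67% identity over 510 bases. Bases 775 to 834 of mt-Nd2 (chrM:4688-4747) and the same stretch of Gm13339 (chr2:22590228-22590287, minus strand) differ at 4 bases, C780T, T781C, C819T and T831C, which are in capitals.
mt-Nd2: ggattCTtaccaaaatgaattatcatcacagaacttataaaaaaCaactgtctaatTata
Gm13339: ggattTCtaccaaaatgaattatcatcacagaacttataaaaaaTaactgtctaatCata

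The counts of the mitochondrial genes fell into separate ranges by whether GENCODE lists a full-length copy on chromosome 1. In what follows, a gene has such a copy only where one is listed there. Per kilobase of gene, the 8 genes without a full-length copy on chromosome 1 stood between 87616 and 371204 normalized reads, with mt-Co1, the catalytic subunit of complex IV, at the top and mt-Nd6 at the bottom. The 5 genes with such a copy, mt-Co2, mt-Atp6, mt-Co3, mt-Nd3 and mt-Nd4l, stood between 44.9 and 929 normalized reads per kilobase. All of them are transcribed from the same strand as mt-Co1 and lie between it and mt-Nd4. The chromosome 1 copies themselves held mean counts of 243 (Gm28661), 172 (Gm10925), 88.8 (Gm28437) and 11.3 (Gm28438), beside 385 for mt-Co2, 295 for mt-Atp6, 123 for mt-Co3 and 323 for mt-Nd3. Gm10222 held 105% of the count of mt-Nd4l, which had a mean of 13.3. HTSeq in its default setting leaves out a read that aligns to several places, but the setting used is not given in the sources used here, and its part in these low counts was not tested. The copy of mt-Co2 on chromosome 2 (Gm13341), which is 95.91% identical, held a mean of 25.7. Gm13340, also on chromosome 2, is 97.6% identical to mt-Co1 over its 1545 bases and held a mean of 119. On chromosome 4, Gm11410 and Gm11408 match mt-Cytb and mt-Nd6 at 92.9% and 93.6% identity. mt-Atp8, whose 204 bases lie between mt-Co2 and mt-Atp6, has no copy among the annotated transcripts of chromosome 1. It stood at 104102 normalized reads per kilobase, although it shares 43 bases with mt-Atp6. On chromosome 1 Gm10925, the copy of mt-Atp6, ends at base 24614651 and Gm28661, that of mt-Co2, starts at base 24614885. The bases between them, where a copy of mt-Atp8 would lie in this order, were not searched for one. mt-Nd6 is the only subunit gene encoded on the other strand, and the library kit does not mark strand, so its reads cannot be told apart from antisense RNA of the same stretch.

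**Figure D1:**
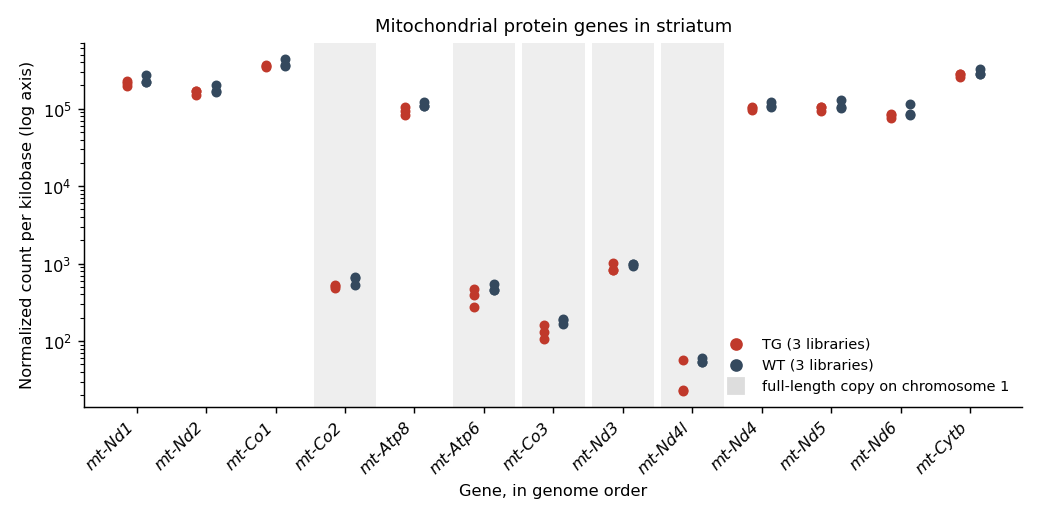
Normalized read count per kilobase (log axis) of the 13 mitochondrial subunit genes in genome order, with 1 point per library, TG in red and WT in dark blue. The 5 shaded genes, which have a full-length copy on chromosome 1, have means between 44.9 and 929, and the other 8 between 87616 and 371204.

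Mitochondrial subunit genes made up most of the reads of the pathway. They took 5.24%, 5.39% and 4.86% of the counted reads in TG mice 1, 2 and 3, against 6.34%, 5.26% and 5.33% in WT mice 1, 2 and 3. Nearly all of these reads came from the 8 genes without a full-length copy on chromosome 1, since the 5 with one held low counts. The 95% Wilson interval of each share, which covers counting error only, was narrow (6.33% to 6.35% in WT mouse 1). The TG and WT shares overlapped, with WT mouse 1 highest and TG mouse 3 lowest. mt-Co1 alone took between 1.68% and 2.12% of the reads, whereas the 82 nuclear subunit genes together took between 0.81% and 0.842%. The 2 mitochondrial ribosomal RNAs took between 0.575% and 0.739%, and again the highest share was that of WT mouse 1.

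No subunit gene of either genome was called as changed between TG and WT mice. With limma on log2(normalized read count + 1) and Benjamini-Hochberg adjustment over all genes tested, 0 of 95 were called higher and 0 lower at an adjusted P value under 0.05, where 0.00568% and 0% of all genes were called, and the smallest adjusted P value was 0.971. edgeR's quasi-likelihood test and DESeq2 on the recovered reads also called 0. At an unadjusted P value under 0.05 by limma, 1 subunit gene was higher and 5 were lower in TG. The shares of all genes were 1.98% and 2.33%. In both directions together, edgeR gave 6 of 95, beside 771 of all 17605 genes, and DESeq2 gave 5, beside 431. The 3 TG values lay above all 3 WT values for 6 subunit genes and below them for 11, beside 5.06% and 5.05% of all genes. The 5 genes lower at the unadjusted threshold were mt-Atp8, mt-Co3, mt-Co2, mt-Atp6 and nuclear Ndufb8, and the 1 higher was nuclear Ndufs1. Of these, mt-Co3, mt-Co2 and mt-Atp6 have a full-length copy on chromosome 1 and the low counts given above. Their fold changes may therefore not describe the whole RNA of the gene. Of the 8 mitochondrial genes without such a copy listed, 1 was lower at this threshold, mt-Atp8. It lies between mt-Co2 and mt-Atp6, and the stretch between their copies on chromosome 1 was not searched.

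**Figure D2:**
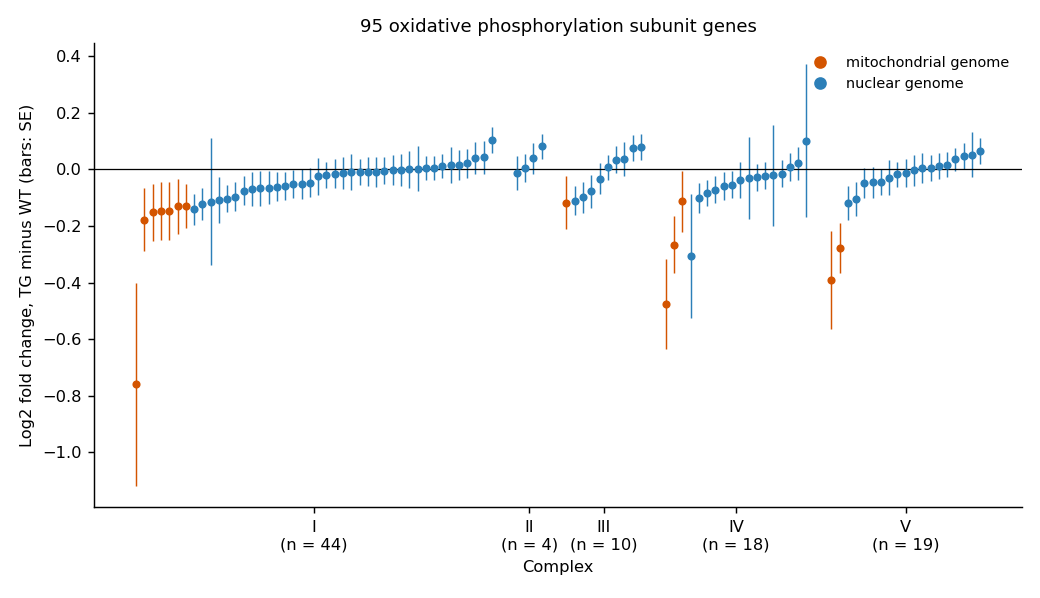
Log2 fold change (TG minus WT) of the 95 subunit genes with its standard error, by complex, with mitochondrial genes in orange and nuclear genes in blue, each ordered by value. All 13 mitochondrial genes lie below 0, from -0.76 to -0.11, whereas the nuclear genes lie on both sides, from -0.31 to 0.11.

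Of the mitochondrial genes, all 13 had a log2 fold change below 0, with a median of -0.15 (-0.002 over all genes tested, of which 50.8% were below 0). These genes share precursors and libraries and are not independent of one another. The median deviation of the 13 genes from their mean over all mice was -0.06, 0.01 and -0.18 in TG mice 1, 2 and 3, against 0.26, -0.02 and -0.002 in WT mice 1, 2 and 3. WT mouse 1 was therefore the highest and TG mouse 3 the lowest, and TG mouse 2 lay above WT mice 2 and 3. The median log2 fold change was -0.07 without WT mouse 1 and -0.10 without TG mouse 3. It was -0.14 over the 8 genes without a full-length copy on chromosome 1 and -0.39 over the 5 with one. This split was chosen after seeing the data. The ribosomal RNAs mt-Rnr1 and mt-Rnr2, which come from the same genome, had log2 fold changes of -0.09 each.

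The proton-pumping core of complex I that the mitochondrial genome encodes showed nearly equal differences among its larger members. mt-Nd1, which lies at the entry of ubiquinone, had 207196, 215756 and 186283 normalized reads in TG mice 1, 2 and 3, against 258885, 209747 and 209925 in WT mice (log2 fold change -0.15, SE 0.10). mt-Nd2, mt-Nd4 and mt-Nd5, the antiporter-like subunits of the membrane arm, had log2 fold changes of -0.13, -0.13 and -0.15, and mt-Nd6 one of -0.18. In each of these genes WT mouse 1 held the highest value and TG mouse 3 the lowest, and the groups overlapped. mt-Nd3, a small subunit with a full-length copy, had 284, 355 and 283 normalized reads in the TG libraries and 348, 321 and 348 in the WT mice, and TG mouse 2 held the highest value of all. mt-Nd4l was the member nearest to the limit on low counts, with 6.86, 16.9 and 6.82 normalized reads in the TG mice and 16.02, 17.8 and 15.7 in the WT libraries (log2 fold change -0.76, SE 0.36). TG mice 1 and 3 lay below the other 4 mice, at counts of few reads. mt-Cytb, the mitochondrial subunit of complex III, had 316547, 324487 and 292588 normalized reads in the TG libraries and 372774, 318913 and 322935 in the WT libraries (log2 fold change -0.12, SE 0.09).

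The mitochondrial genes with the smallest P values belong to complexes IV and V. Of them, mt-Co3, mt-Co2 and mt-Atp6 have a full-length copy on chromosome 1 and low counts. mt-Atp8, a small subunit of the membrane part of ATP synthase, had 16738, 21728 and 19271 normalized reads in TG mice 1, 2 and 3, against 25245, 22080 and 22359 in WT mice (log2 fold change -0.28, SE 0.09, limma unadjusted P = 0.0103, adjusted P = 0.971). The groups did not overlap, but TG mouse 2 and WT mouse 2 lay close to each other. mt-Co3, a core subunit of complex IV, had 82.4, 126 and 101 normalized reads in the TG libraries and 151, 146 and 130 in the WT libraries (log2 fold change -0.48, SE 0.16), again without overlap. mt-Co2, which holds the copper site that takes electrons from cytochrome c, had 361, 334 and 351 in the TG libraries and 458, 359 and 448 in the WT libraries (-0.27, SE 0.10). Here WT mouse 2 lay among the TG values. mt-Atp6, which forms the proton channel beside the c ring, had 267, 324 and 185 in the TG libraries and 373, 311 and 311 in the WT libraries (-0.39, SE 0.17), and TG mouse 2 lay above 2 of the WT mice. mt-Co1, the subunit gene with the highest count, had 553104, 567307 and 529588 in the TG libraries and 672364, 547868 and 570827 in the WT libraries (-0.11, SE 0.11). Its groups overlapped, and the adjusted P value of each of these genes was 0.971.

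The copies on chromosome 1 had log2 fold changes on the same side. Those tested ranged from -1.39 (Gm10925) to -0.30 (Gm28661), with adjusted P values between 0.971 and 0.973. For Gm10925 the values were 91.0, 84.3 and 65.2 normalized reads in the TG libraries and 133, 527 and 132 in the WT libraries, so WT mouse 2 stood apart, and without it the log2 fold change was -0.73. Its mitochondrial counterpart mt-Atp6 showed no such value in WT mouse 2 (311). For Gm28661, identical to mt-Co2 over 681 bases, leaving out 1 library moved the log2 fold change between -0.75 and 0.11.

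**Figure D3:**
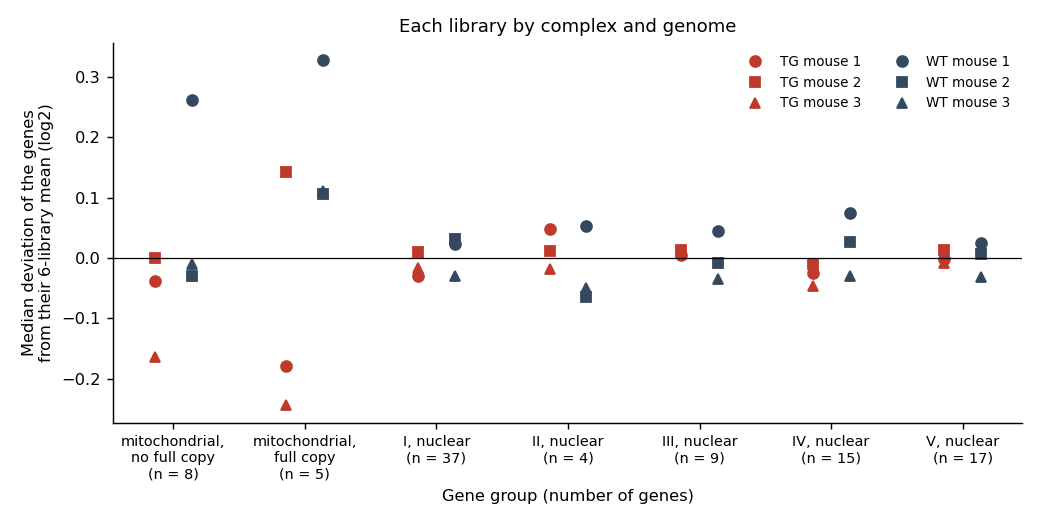
Median deviation of each gene group from its mean over the 6 libraries (log2), with 1 point per mouse, TG in red and WT in dark blue. Among the 8 mitochondrial genes without a full-length copy on chromosome 1, WT mouse 1 lies at 0.26 and TG mouse 3 at -0.16. In these genes the other 4 mice lie between -0.04 and -0.0005, whereas the nuclear groups lie between -0.06 and 0.07.

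The nuclear subunit genes lay close to 0. Their median log2 fold change was -0.01 (from -0.04 without WT mouse 3 and -0.03 without TG mouse 2 to -0.003 without WT mouse 1), with 53 of 82 below 0, and the median deviation of a library ranged from -0.03 in WT mouse 3 to 0.03 in WT mouse 1. The difference between the mitochondrial and the nuclear median was -0.14, and by library it was -0.04, 0.0003 and -0.16 in the TG libraries and 0.23, -0.04 and 0.03 in the WT libraries. TG mouse 2 lay above WT mouse 2 in this difference, so the groups overlapped.

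In complex I, the nuclear genes were split into 7 core subunits and 30 others, taken here as accessory. The 30 include Ndufa4 and Ndufa4l2, which were placed in complex I by symbol. The core subunits carry the flavin and the iron-sulfur clusters and had a median log2 fold change of 0.01, with 3 of 7 below 0. Ndufs1, the largest iron-sulfur subunit, had 3637, 3727 and 3910 normalized reads in the TG libraries and 3500, 3498 and 3480 in the WT libraries (log2 fold change 0.11, SE 0.05, limma unadjusted P = 0.0422, adjusted P = 0.971). All TG values lay above all WT values, and the WT values were nearly equal. Ndufv1, which binds NADH, differed by less than the spread between mice (3822 ± 63.0 against 3807 ± 69.9 normalized reads, TG against WT, SD, n = 3). The accessory subunits surround this core. Their median was -0.02, with 24 of 30 below 0. Ndufb8, an accessory subunit of the membrane arm, had 1159, 1195 and 1116 normalized reads in the TG libraries and 1238, 1274 and 1316 in the WT libraries (log2 fold change -0.14, SE 0.05, limma unadjusted P = 0.0246, adjusted P = 0.971). Its groups did not overlap. Per kilobase of exon, the nuclear genes of complex I ranged from 65.5 normalized reads for Ndufa4l2 to 3392 for Ndufb9. Ndufa4, whose protein is now counted as a subunit of complex IV in spite of its name, stood at 3032 per kilobase, and its log2 fold change was -0.01 (0.02 without TG mouse 1).

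Complex II is also the succinate dehydrogenase of the citric acid cycle and holds no mitochondrial genes. It was the only complex whose median over all its genes lay above 0 (0.02, 3 of 4 genes above 0), but without WT mouse 3 this median was -0.01. The nuclear genes of complex III alone also had a median above 0 (0.01). With the length correction the medians of complexes III and V lay above 0 as well (0.006 and 0.0003). Sdha, the flavin-bearing catalytic subunit, had 11890, 11532 and 11752 normalized reads in the TG libraries and 11238, 10788 and 11212 in the WT libraries (log2 fold change 0.08, SE 0.04). All TG values lay above all WT values, though the adjusted P value was 0.971. Sdhb, the iron-sulfur subunit, gave 3031 ± 88.3 against 3020 ± 114 (SD, n = 3). By level per kilobase Sdha was highest at 2763 and Sdhc, a membrane anchor, lowest at 643, and this order held in TG and in WT mice.

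Complex III had a median log2 fold change of -0.01 (0.01 over its 9 nuclear genes, and 0.005 for the whole complex without TG mouse 2), and its genes stood on both sides of 0. Uqcrc2, a core protein, had 4902, 4845 and 4921 normalized reads in the TG libraries and 4838, 4588 and 4491 in the WT libraries (log2 fold change 0.08, SE 0.05). Uqcrfs1, the Rieske iron-sulfur protein, had 2499, 2627 and 2480 in the TG libraries and 2400, 2447 and 2352 in the WT libraries (0.08, SE 0.05). In both genes the groups did not overlap. Uqcrc1, the other core protein, had a log2 fold change of 0.03 and Cyc1, cytochrome c1, one of -0.03. Uqcr11, a small accessory subunit, had 1855, 1851 and 1694 in the TG libraries and 1954, 1968 and 1903 in the WT libraries (-0.11, SE 0.05). Its TG values lay below all WT values. In all, 4 of the 9 nuclear genes had groups that did not overlap, 2 in each direction (5.06% of all genes tested upward and 5.05% downward), and none passed the adjusted threshold. Levels per kilobase ran from 1116 (Uqcrq) to 2919 (Uqcr11), the narrowest ratio of highest to lowest among the 5 complexes.

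Complex IV had the lowest median of the nuclear genes, -0.03 with 12 of 15 below 0, and WT mouse 1 was again its highest library (0.07, against -0.05 to 0.03 in the others). This complex has tissue-specific isoforms for several subunits, and in the striatum the common form stood far above the tissue-specific one of each pair, although each of the latter that was tested had reads in every library. Cox4i1, the common form of subunit 4, stood at 4952 normalized reads per kilobase and Cox4i2, known from lung and from vessel mural cells, at 62.4. Their log2 fold changes were -0.03 and -0.02, and both changed sign without TG mouse 1, that of Cox4i2 to 0.07. Cox6a1 stood at 8931 and Cox6a2, known from muscle and from parvalbumin interneurons, at 195. The contrast was as wide for the next subunit. Cox6b1 stood at 4971 and Cox6b2, known from testis, at 37.8. For subunit 7a, Cox7a2 stood at 2656, Cox7a2l, a supercomplex factor, at 2293 and the muscle form Cox7a1 at 37.3. These 3 proteins are close relatives with different roles in the inner membrane. Cox7b stood at 2432 per kilobase, whereas its testis form Cox7b2 had a mean count of 7.44 and lay just outside the limit on low counts. Cox8a stood at 12669 per kilobase, the highest nuclear subunit gene by union exon length (Atp5b was higher by longest transcript, 16157 against 14258), while the muscle form Cox8b had a mean count of 4.78 and Cox8c was listed at 0 in all 6 libraries, which allows up to 3 reads per library. For each isoform tested, the TG and WT values overlapped. The largest log2 fold change among them, -0.31 for Cox6b2, came with a standard error of 0.22. Cox6a2 stood at 130 ± 5.96 against 135 ± 25.6 normalized reads (TG against WT, SD, n = 3). In these libraries the summed counts of 4 parvalbumin interneuron genes lay between 10288 and 11404, of which Pvalb itself held only 662 to 872. Testis markers were at or near 0, with sums of 4 genes between 0.98 and 7.87. Cox5a, which binds the matrix side of Cox4, gave 1841 ± 128 against 1811 ± 51.7, and its log2 fold change was -0.03 without TG mouse 1.

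**Figure D4:**
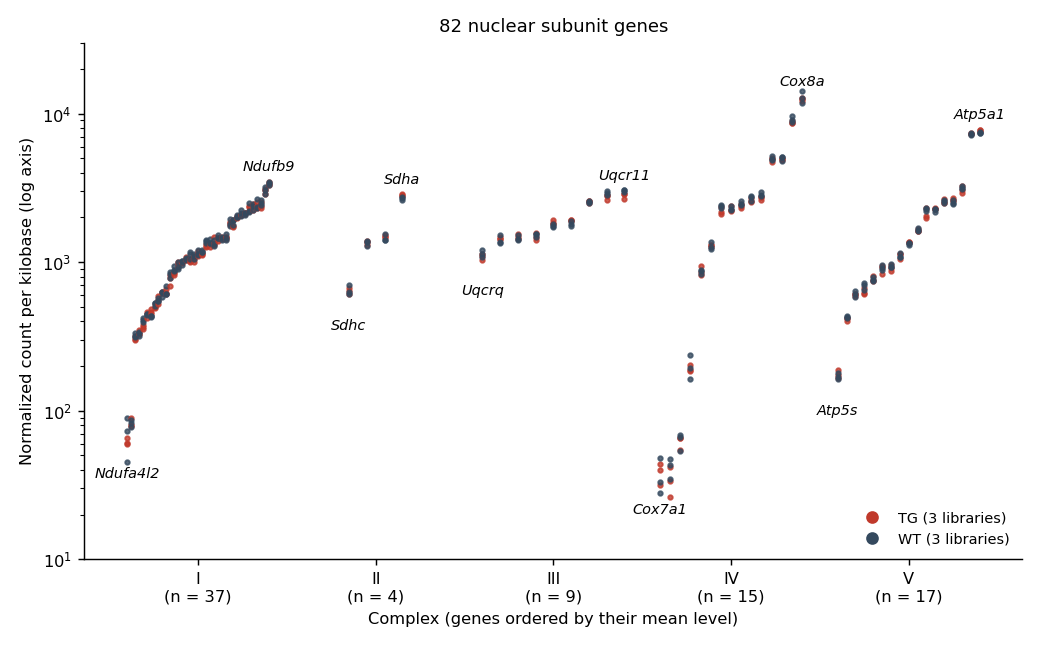
Normalized read count per kilobase of exon (log axis) of the 82 nuclear subunit genes by complex, ordered by mean level, with 1 point per library, TG in red and WT in dark blue. The highest and lowest gene of each complex are named; complex IV spans the widest range, from 37.3 for Cox7a1 to 12669 for Cox8a, and the TG and WT points mostly lie close together, with a wider spread in the lowest genes.

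In complex V, the catalytic head, the c ring and the stalk each had medians near 0 (0.01, -0.01 and 0.005). Atp5a1, the alpha subunit of the head, had 23697, 24197 and 24431 normalized reads in the TG libraries and 23163, 23355 and 23453 in the WT libraries (log2 fold change 0.05, SE 0.05), and its groups did not overlap. Atp5b, the catalytic beta subunit, had 31084 ± 71.8 against 30830 ± 351 (TG against WT, SD, n = 3), a log2 fold change of 0.01. Atp5c1, the central shaft, had a log2 fold change of 0.06 (SE 0.05). The c ring that turns in the membrane is made from 3 genes with the same mature protein. Atp5g3 stood at 2267 normalized reads per kilobase, Atp5g2 at 924 and Atp5g1 at 608, an order that held in both groups, with log2 fold changes of 0.02, -0.05 and -0.01. Atp5a1 (7565) and Atp5b (7306) led the complex per kilobase of union exon (8869 and 16157 by longest transcript, which turns their order), and Atp5s, a coupling factor rather than a structural subunit, was lowest at 173.

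The sign of the nuclear values differed by exon length. Of the nuclear subunit genes under 1000 bases, 17 of 20 had a log2 fold change below 0 (median -0.03), of those from 1000 up to 2000 bases 26 of 32 (median -0.03), and of those of 2000 bases or more 10 of 30 (median 0.01). The other protein-coding genes had medians of -0.04, -0.03 and 0.002 in the same classes, with 64.0%, 59.5% and 49.3% below 0. Of the genes described above, Ndufs1 (8086 bases of exon), Sdha (4126) and Uqcrc2 (2552) lay above 0 and Uqcr11 (641) below it, whereas Ndufb8 (3146) lay below 0 and Uqcrfs1 (1363), Atp5c1 (1908) and Cox7a1 (535) above it. After a correction of each library for length the nuclear median was 0.0002 and the mitochondrial median -0.13.

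**Figure D5:**
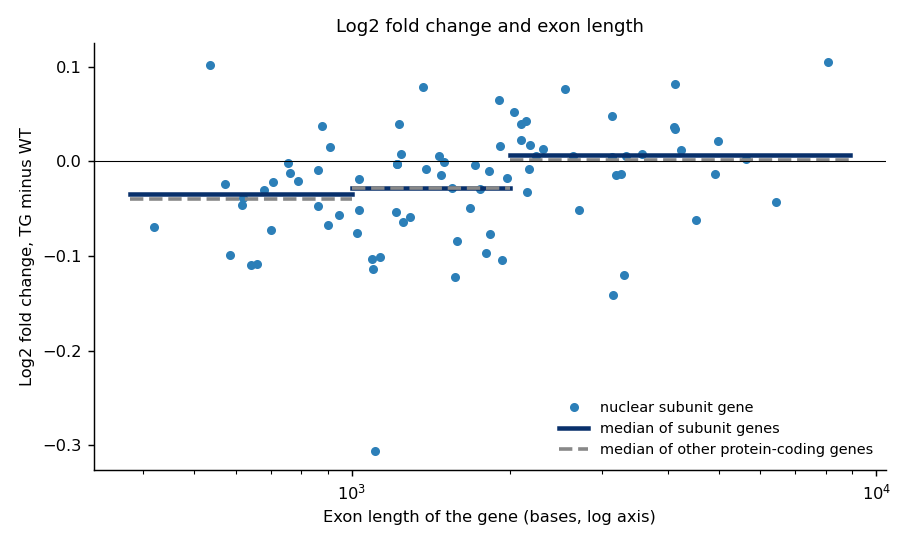
Log2 fold change (TG minus WT) of the 82 nuclear subunit genes against exon length (log axis), with the median of each length class for subunit genes (solid) and for the other protein-coding genes tested (dashed). The medians of both kinds lie at -0.03 or -0.04 below 2000 bases and at 0.01 and 0.002 from there on.

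Genes that build, transcribe and feed the complexes were examined from lists beside the subunits, and 0 of them passed the adjusted threshold in either direction. Of 48 assembly factors, 45 were tested, with a median log2 fold change of 0.003 and 0 at an unadjusted P value under 0.05 in either direction (1.98% of all genes tested were higher and 2.33% lower). The 28 genes of mitochondrial DNA expression had a median of 0.06, with 17 above 0. Lrpprc, which binds and stabilizes mitochondrial mRNAs, had 2467, 2562 and 2577 normalized reads in the TG libraries and 2292, 2360 and 2306 in the WT libraries (log2 fold change 0.13, SE 0.05, limma unadjusted P = 0.0172, adjusted P = 0.971), without overlap. Tfam, the packaging and transcription factor of mitochondrial DNA, had a log2 fold change of 0.14 (SE 0.06), and Polrmt, the mitochondrial RNA polymerase, one of -0.16 (SE 0.08). The groups of both overlapped. Among 13 regulators of mitochondrial biogenesis the median was -0.003. The coactivator Ppargc1a had 1586, 1558 and 1623 in the TG libraries and 1442, 1490 and 1517 in the WT libraries (0.10, SE 0.05), and its partner Esrra had a log2 fold change of -0.10 (SE 0.05). Nrf1 and Gabpa, which activate many nuclear subunit genes, had log2 fold changes of -0.04 and -0.003 (0.03 each without TG mouse 1). Cytochrome c (Cycs) had one of 0.07, and Ndufab1, an acyl carrier subunit of complex I that the choice by symbol leaves out, one of 0.11.

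The citric acid cycle genes and other genes of mitochondrial mass stood mostly above 0. Of 27 genes 22 had a log2 fold change above 0 (median 0.04). The groups did not overlap upward for 10 and downward for 1 (5.06% and 5.05% of all genes). By limma, 4 had an unadjusted P value under 0.05, all higher (1.98% of all genes). Among the 6238 genes tested with a mean of 1000 or more, 3428 lay above 0. Of these 6238, 457 did not overlap upward, 290 did not overlap downward, and 180 were higher at the unadjusted threshold. Idh3a, a subunit of isocitrate dehydrogenase, had 5513, 5330 and 5597 normalized reads in the TG libraries and 5199, 4894 and 4831 in the WT libraries (log2 fold change 0.14, SE 0.05). Hspd1, the matrix chaperonin, had 4972, 5048 and 5085 in the TG libraries and 4666, 4713 and 4631 in the WT libraries (0.11, SE 0.04). Sucla2 and Dld each had a log2 fold change of 0.11, and citrate synthase (Cs), often used as a measure of mitochondrial content, one of 0.05 (SE 0.04). Suclg2, the GTP-forming partner of Sucla2, was the gene whose TG values lay below all WT values (-0.14, SE 0.06). The adjusted P values of these genes were 0.971, and the difference between this list and the subunits was not tested.

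Nuclear subunit genes also have copies. By transcript alignment (identity of at least 90% over at least 100 bases and at least 50% of the copy), 29 of the 82 had pseudogene copies, 75 in all. Of these 50 were in the table, 18 were listed at 0 in every library and 6 had a mean of 10 or more. The highest relative to its parent was Ndufb4c, identical to Ndufb4 over 390 bases, with 34.9 normalized reads or 2.95% of the count of Ndufb4. The 25 copies outside the table have no count here.

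The promoters of nuclear subunit genes were searched for the letters of 3 factors known to drive this pathway. A RefSeq promoter (GRCm38.p6, 250 bases before to 50 after the start) was matched for 66 of 82 genes. The NRF1 letters GCGCATGCG, on either strand, were in the promoters of 8 of 66 genes (12.1%, against 1.95% of 27025 genes), among them Uqcrc1, Cox6a1, Uqcr11 and Atp5g2. The letters CCGGAAG, bound by GABPA and other ETS factors, were in 16 (24.2%, against 9.93%), and TGACCTTG, bound by ESRRA, in 4 (6.06%, against 1.76%). A match is a description of the letters and not a bound site. The genes with NRF1 letters had log2 fold changes between -0.11 and 0.03, within the range of the other nuclear subunit genes.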

How the data were processed

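Striatal RNA of 3 WT and 3 Shank3 TG mice was sequenced in pairs of reads. The authors trimmed the reads (Trimmomatic 0.35), aligned them to GRCm38 (TopHat2 2.1.0), counted them per gene (HTSeq) and deposited a normalized signal, in which each library's gene counts are divided by its size factor from DESeq2. The strand setting and the annotation release are not given in the sources used here.

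Read counts were recovered from these values (100% whole within 0.01 reads in each library). The main test was limma 3.58.1 with a mean-variance trend (R 4.3.3) on log2(value + 1), TG against WT, over 17605 genes (mean value of 10 or more), adjusted by the Benjamini-Hochberg method. Fold changes are therefore on the log2(value + 1) scale, which understates those of low genes. edgeR 4.0.16 and DESeq2 1.42.0 on the recovered counts were alternatives. Levels per kilobase used the union of GENCODE M21 exons, to which 45229 of 46078 identifiers were matched. Copies were found with blastn 2.17.0 among transcripts, since no genome sequence was used here. The fits were tested on simulated counts, with the same spread setting for every gene and set changes larger than most of those here. No shift shared by the genes of a library was simulated, so that test does not cover such shifts. Where no label says how the mice were drawn, P values measure the spread between these 6 libraries. The replicate numbers were not treated as pairs.

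Genes were named by a rule: Shank3, the 13 mitochondrial subunit genes, in each direction the 5 subunit genes of smallest P value, the highest and lowest nuclear gene of each complex per kilobase, isoform groups, catalytic or core subunits and those nearest the limit on low counts; 1 gene of this rule is not reported here. Pathway genes were named from their lists after their values were seen. The subunit genes, lists and tests were chosen with earlier results of these data known. Alternatives were other scalings, filters, pseudocounts and thresholds, leaving out each library, a replicate block, and corrections for GC content and length.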

Additional observations from a re-analysis of the deposited data

How the results depend on the processing

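The counts of subunit genes called at an adjusted P value under 0.05 were 0 higher and 0 lower under each alternative, also at 0.1. At an unadjusted P value under 0.05 the count of higher genes was 1, and it was 0 with edgeR, DESeq2, no filter and the GC correction, 2 with the length correction and 0 to 1 with 1 library left out. The count of lower genes was 5, and it was 10 with the replicate block, 8 with the GC correction and 2 to 8 with 1 library left out (2 without WT mouse 1, 3 without TG mouse 3, 8 without TG mouse 1 or TG mouse 2). Apart from edgeR and DESeq2, the share of all genes was not counted under these alternatives. A change in these counts may therefore not be particular to the subunit genes. The same-numbered TG and WT mice had correlations of 0.047, 0.016 and 0.093 in their deviations, and the other pairings lay between -0.12 and 0.077, so the numbers were not read as pairs. The medians of all subunit genes, of each genome and of each complex moved by less than the spread between libraries under every alternative. That spread comes from the same 6 libraries, so leaving out 1 of them could hardly move a median by more. The replicate block leaves a median as it was by design. With 1 library left out, the mitochondrial median ran from -0.21 (without WT mouse 3) to -0.07 (without WT mouse 1). Leaving out mt-Cytb moved the mitochondrial median to -0.16 and that of complex III to 0.01 (chosen after seeing the data). The 13 mitochondrial genes kept their sign under the 18 alternatives, and with them 29 of 47 named subunit genes did. With the GC correction the log2 fold change was 0.012 for Ndufb9, 0.016 for Cox8a, 0.023 for Cox4i1, 0.020 for Cox4i2, 0.017 for Cox6a1, 0.045 for Atp5g2, 0.046 for Cyc1 and -0.014 for Cox5a. With the length correction it was 0.0018 for Ndufb9, 0.0074 for Cox7a2l and 0.014 for Ndufa4, and scaled by library totals it was 0.0018 for Gabpa. With 1 library left out it ranged from -0.10 to 0.032 for Cox8a, -0.39 to 0.097 for Ndufa4l2, -0.049 to 0.042 for Sdhc, -0.062 to 0.31 for Cox7a1, -0.050 to 0.0022 for Cox4i1, -0.13 to 0.067 for Cox4i2, -0.16 to 0.11 for Cox6a2, -0.043 to 0.016 for Cox7a2l, -0.045 to 0.019 for Atp5g1, -0.0090 to 0.031 for Atp5g3, -0.045 to 0.029 for Ndufa4, -0.0076 to 0.019 for Ndufv1, -0.026 to 0.028 for Sdhb, -0.078 to 0.0063 for Cyc1, -0.032 to 0.066 for Cox5a, -0.10 to 0.034 for Nrf1 and -0.030 to 0.035 for Gabpa. The cause was not tested. Of the 10 genes at either end of a complex by level per kilobase, 9 were the same when all matching genes were kept and 8 with the length of the longest transcript. Depth limits the values of mt-Nd4l, Gm10222 and Gm28438, which rest on few reads.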

Other observations

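Beside the subunit genes, 17 of the 22 mitochondrial transfer RNA genes were listed at 0 in every library, and no other value exceeded 10.8 normalized reads except those of mt-Tp, next to the control region, which lay between 1736 and 2603. Its TG and WT values overlapped (log2 fold change 0.06), and the kit does not mark strand, so its reads cannot be told apart from RNA of the opposite strand.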
